A study of Homo sapiens with 9 samples.

Results

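RHOB and KLF2 are genes known from other cells to rise when a statin is given. They were taken by symbol from the named probesets of the arrays, so that 2 of 14884 genes with a name are described here, each read by 1 probeset. RNA came from SMS-KCNR, an established human neuroblastoma line, on 9 arrays in 3 groups of 3. One group had received simvastatin (5 µM) together with mevalonate (2 mM), another simvastatin alone at that dose, and the third DMSO, the solvent. All were harvested at 30 hours and grown in serum-containing medium, so every group is 1 cell line in culture and all groups share the line and the serum.

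Simvastatin blocks HMG-CoA reductase, the enzyme that makes mevalonate. Mevalonate is the precursor of cholesterol and of the farnesyl and geranylgeranyl lipids that anchor many small GTPases to membranes, and adding it to the medium bypasses the block. RHOB encodes a short-lived small GTPase of endosomes and the plasma membrane that can carry either lipid, and its gene is transcribed early after growth factor or stress signals. KLF2 encodes a zinc finger transcription factor best known from blood vessel lining, where flow and statins raise it through the kinase ERK5 and MEF2 factors, and from resting T cells.

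The promoter sequences are shown because the elements through which these genes are known to be regulated lie in them: CCAAT boxes, which bind NF-Y, in RHOB, and a MEF2 site in KLF2. The RefSeq stretches cover 250 bases up to the base before the annotated start on the plus strand (GRCh38.p14), at chr2:20446824-20447073 for RHOB and chr19:16324576-16324825 for KLF2. Capitals mark CCAAT on either strand in RHOB and the MEF2 consensus in KLF2.
RHOB: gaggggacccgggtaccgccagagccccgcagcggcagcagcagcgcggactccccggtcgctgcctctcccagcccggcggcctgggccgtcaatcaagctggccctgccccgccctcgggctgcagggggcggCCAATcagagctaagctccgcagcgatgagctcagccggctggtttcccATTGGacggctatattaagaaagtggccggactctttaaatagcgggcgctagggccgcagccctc
KLF2: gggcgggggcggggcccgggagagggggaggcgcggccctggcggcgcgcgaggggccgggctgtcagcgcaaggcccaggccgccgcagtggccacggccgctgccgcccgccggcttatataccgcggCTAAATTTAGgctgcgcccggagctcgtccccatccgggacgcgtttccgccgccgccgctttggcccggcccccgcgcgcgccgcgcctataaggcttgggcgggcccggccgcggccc

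The RHOB promoter held CCAAT 2 times, at 115 to 111 bases before the start on the plus strand and at 66 to 62 bases on the minus strand. Of 35116 RefSeq promoters of this length, 32.0% held at least 1 CCAAT. The KLF2 promoter held none, but had 1 match to the MEF2 consensus at 120 to 111 bases before the start, a match found in 2.8% of promoters. RHOB had 0 matches to that consensus. The GC box GGGCGG occurred 2 times for RHOB and 4 times for KLF2, and 42.6% of promoters had at least 1 and 13.9% at least 3. The share of G and C bases was 68.8% for RHOB and 80.0% for KLF2, against a median of 58.0% over all promoters. TGACG, a core of cAMP-response elements, was found 1 time for RHOB (21.2% of promoters) and not for KLF2, and neither held CACCC, a core of KLF binding sites (54.7%), or the CArG box of serum response factor (1.16%). Both strands were searched, no matches overlapped each other in these windows, and the motifs were picked with the sequences in view.

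As a check of the cells, 11 of 14 listed markers of sympathetic neuroblasts were measured, and all 11 had mean log2 values above 5.187, the median of all probesets. Of 11 endothelial markers 8 were measured, and 3 of these lay above that median. So did 7 of 8 measured mesenchymal markers, 3 of 5 Schwann and glial markers and 2 of 4 blood markers. This median therefore does not separate neuroblast from mesenchymal expression. Over each array the endothelial markers averaged 4.81 to 4.93 with simvastatin plus mevalonate, 4.80 to 4.85 with simvastatin and 4.73 to 4.85 with DMSO. Of these 8 markers 0 had a limma adjusted p under 0.05 in any comparison. In the 3 comparisons in the order below, 13.4%, 11.0% and 0.0739% of all genes did. In the same order 0, 1 and 3 of the endothelial markers had an unadjusted p under 0.05. HMGCS1, an enzyme of mevalonate synthesis, served as a check of the drug and was 3.17-fold higher with simvastatin than with DMSO. With simvastatin plus mevalonate it was still 1.52-fold higher than with DMSO (limma, adjusted p = 0.0129). That call was lost when any DMSO array or replicate 1 of simvastatin plus mevalonate was left out (adjusted p up to 0.0795). Arrays of a group correlated at 0.994 to 0.996 across genes, and no array stood apart.

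RHOB was higher on every simvastatin array than on any other array. Its log2 values were 9.61, 9.69 and 9.68 with simvastatin, against 8.82, 8.78 and 8.83 with DMSO. These groups were far apart compared with the spread inside them. The means were 9.66 ± 0.05 with simvastatin and 8.81 ± 0.03 with DMSO (SD, n = 3 each). RHOB rose 1.80-fold, by 0.85 ± 0.04 (SE; 95% interval 0.75 to 0.95) on the log2 scale, with a limma p of 1.6e-05 adjusted over all genes by the Benjamini-Hochberg method. This was the 33rd largest of 14884 changes counted from the top. In this comparison 13.4% of genes passed the threshold of an adjusted p under 0.05, 5.98% upward and 7.38% downward. In RNA from whole cultures, fewer cells of a type and less RNA per cell cannot be told apart.

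KLF2 was also higher on each simvastatin array than on each DMSO array, by a narrower margin. Its log2 values were 6.77, 7.01 and 6.87 with simvastatin, against 6.29, 6.62 and 6.14 with DMSO. DMSO replicate 2, at 6.62, lay closer to the lowest simvastatin array than to the other DMSO arrays, and the DMSO arrays had the widest spread. The means were 6.89 ± 0.12 with simvastatin and 6.35 ± 0.25 with DMSO (SD, n = 3 each). KLF2 rose 1.45-fold, by 0.53 ± 0.12 (SE; 95% interval 0.26 to 0.80; limma, adjusted p = 0.0197), which was rank 174 from the top. Without DMSO replicate 2 the change was 0.67 (adjusted p = 0.00356). KLF2 no longer passed when DMSO replicate 1 or 3, or else replicate 2 or 3 of simvastatin, was left out (adjusted p up to 0.0671). It also did not pass when the mevalonate arrays were kept out of the fit (0.0638) or all probesets were tested (0.0527). Groups without overlap in the upward direction, as both genes had, occurred in 13.9% of all genes.

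**Figure D1:**
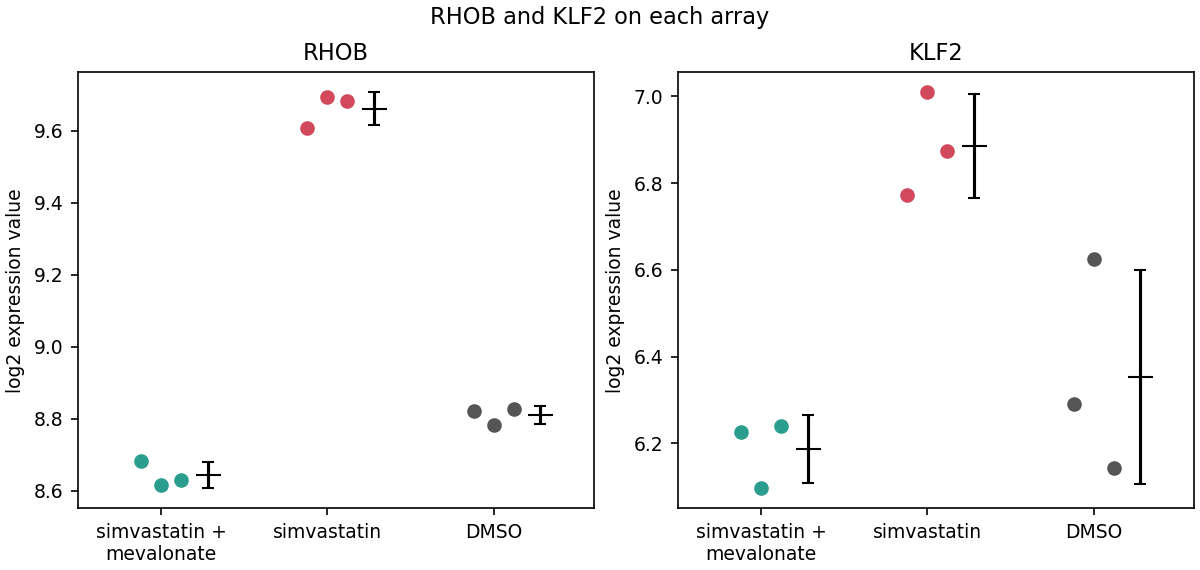
Log2 expression values of RHOB and KLF2 on each array (points, left to right replicates 1 to 3) with the group mean and SD beside them (black, n = 3). The vertical axes do not start at 0. The simvastatin arrays of both genes lie above all others, and for KLF2 DMSO replicate 2 stands at 6.62 above the other DMSO arrays.

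When mevalonate was given with the drug, both genes were lower than with the drug alone. RHOB stood at 8.68, 8.62 and 8.63 with simvastatin plus mevalonate, against 9.61, 9.69 and 9.68 with simvastatin. Its mean was 8.64 ± 0.04 with mevalonate (SD, n = 3). RHOB fell by 1.02 ± 0.04 on the log2 scale (SE), a level 2.03-fold lower with mevalonate (limma, adjusted p = 1.26e-05), and this was the 25th largest fall of 14884. Here 11.0% of genes passed the threshold, 5.72% downward and 5.31% upward.

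KLF2 stood at 6.23, 6.10 and 6.24 with simvastatin plus mevalonate, against 6.77, 7.01 and 6.87 with simvastatin. The mean with mevalonate was 6.19 ± 0.08 (SD, n = 3). KLF2 fell by 0.70 ± 0.12 (SE; limma, adjusted p = 0.00653), a 1.62-fold lower level with mevalonate and the 82nd largest fall. This call held without each single array, with adjusted p up to 0.0299. The groups overlapped for neither gene, a pattern that 13.7% of genes showed in the downward direction. The simvastatin arrays enter both comparisons, which therefore share their chance values.

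Set against DMSO, the cells with drug and mevalonate showed slightly lower values of both genes that did not pass the threshold. RHOB differed by -0.17 ± 0.04 (SE; 95% interval -0.26 to -0.07), with an unadjusted p of 0.00373 and an adjusted p of 0.209 (limma). All 3 arrays with mevalonate, at 8.62 to 8.68, lay below all 3 DMSO arrays, at 8.78 to 8.83, which 9.22% of genes showed in this direction. With an intensity trend and robust variance in limma RHOB passed the threshold (adjusted p = 0.0342), and that fit called 223 genes where the fit reported here called 11 (0.0739% of those tested). KLF2 differed by -0.17 ± 0.12 (95% interval -0.44 to 0.11; limma, adjusted p = 0.653), and its groups overlapped. The KLF2 difference was -0.03 without DMSO replicate 2 and -0.27 without DMSO replicate 3, and it passed the threshold in neither case (adjusted p = 0.942 and 0.553). Both genes therefore had their highest level with simvastatin alone. DMSO and simvastatin plus mevalonate did not differ beyond the threshold.

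**Figure D2:**
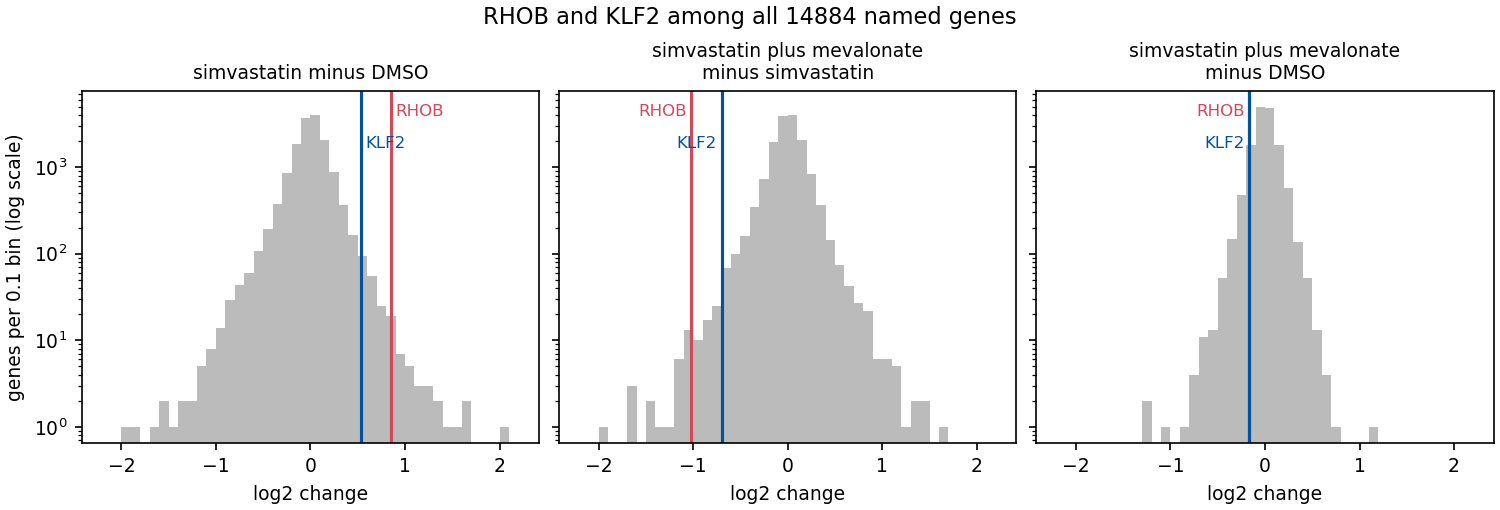
Distribution of the log2 changes of all 14884 named genes in the 3 comparisons (bins of 0.1, log-scaled vertical axis), with lines at RHOB and KLF2. RHOB lies in the outer tail of both comparisons with simvastatin alone and KLF2 further in, while against DMSO with mevalonate present both lines fall together at -0.17.

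Taken 1 gene at a time, without a model across genes, the 3 groups differed for RHOB with p = 0.00357 and for KLF2 with p = 0.0143 (exact permutation test of the spread between group means over the 9 arrays). The smallest p this test can give is 0.00357. The KLF2 value was 0.05 without any 1 of the simvastatin arrays. Whether the genes moved by unequal amounts was tested on the log2 value of RHOB minus that of KLF2 within each array. The rise of RHOB with simvastatin exceeded that of KLF2 by 0.32 ± 0.16 (SE), with array values that overlapped (exact permutation p = 0.2, two-sided). This difference was 0.17 without DMSO replicate 2 and 0.43 without DMSO replicate 3. With mevalonate added, the RHOB change was lower than the KLF2 change by 0.32 ± 0.06 without overlap (exact permutation p = 0.1), the smallest that 3 arrays against 3 allow (0.18 adjusted over 9 such differences).

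RHOA and RHOC, which encode small GTPases closely similar to the RHOB product, were read beside RHOB. RHOA, which drives stress fibres through the ROCK kinases, had log2 values of 11.01, 10.99 and 11.00 with simvastatin, against 10.43, 10.47 and 10.53 with DMSO, and the groups did not overlap. It rose by 0.53 ± 0.05 (SE; limma, adjusted p = 0.000279). With mevalonate added it fell by 0.54 ± 0.05 relative to simvastatin alone (adjusted p = 0.000344), with values of 10.38, 10.54 and 10.49.

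RHOC, linked to cell migration, had log2 values of 5.86, 6.05 and 6.09 with simvastatin, against 5.59, 5.63 and 5.44 with DMSO, again without overlap. It rose by 0.44 ± 0.10 (SE; limma, adjusted p = 0.0173), which did not hold when DMSO replicate 3, or else replicate 2 or 3 of simvastatin, was left out (adjusted p up to 0.0627). With mevalonate RHOC changed by -0.38 ± 0.10 (adjusted p = 0.0403), a call lost without 6 of the 9 single arrays: DMSO replicates 1 and 2, and replicates 2 and 3 of both simvastatin groups (adjusted p up to 0.116).

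Within arrays the rise of RHOB with simvastatin exceeded that of RHOA by 0.32 ± 0.04 (SE) and that of RHOC by 0.41 ± 0.08, each without overlap between simvastatin and DMSO arrays (exact permutation p = 0.1 each, the smallest possible, and 0.18 adjusted over the 9 differences). With mevalonate the RHOB change was lower than that of RHOA, a difference of -0.48 ± 0.08 and lower than that of RHOC, at -0.64 ± 0.09 (exact permutation p = 0.1 each).

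Of 15 listed genes of RHOB turnover and transcription 9 were measured, and the NF-Y genes NFYA, NFYB and NFYC were not among them. SMURF1, a ubiquitin ligase, rose by 0.30 ± 0.06 (adjusted p = 0.00902) and fell by 0.33 ± 0.06 when mevalonate was added. HDAC1, a histone deacetylase, changed by -0.22 ± 0.05 with simvastatin (adjusted p = 0.0305), which did not hold without each of 6 single arrays: DMSO replicates 1 and 3, all 3 of simvastatin, and replicate 3 of simvastatin plus mevalonate (up to 0.089). Of 15 listed genes of prenylation 5 were measured, without the prenyl transferase genes FNTA, FNTB and PGGT1B. FDPS, which makes farnesyl diphosphate, rose by 0.53 ± 0.08 with simvastatin (adjusted p = 0.0039), and the other 4 measured genes ranged from -0.12 to 0.03.

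KLF2 belongs to a family of zinc finger factors that bind GC-rich and CACCC sequences, of which 26 of 27 listed KLF and SP genes were measured. With simvastatin 6 rose and 2 fell, where 5.98% of all genes rose and 7.38% fell past the threshold. The median change was 0.05 over the 26, against 0.01 over all genes. Without DMSO replicate 3, 4 rose and 1 fell. By size KLF2 ranked after KLF11, which also answers to TGF-beta and had log2 values of 8.44, 8.60 and 8.27 with simvastatin, against 7.84, 7.76 and 7.72 with DMSO (0.67 ± 0.09, SE; limma, adjusted p = 0.00221).

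KLF9, a gene induced by steroid and thyroid hormones, rose by 0.48 ± 0.10 (adjusted p = 0.0136), which did not hold with DMSO replicate 3 left out. KLF16 rose by 0.41 ± 0.08 and KLF6, an early response gene, by 0.40 ± 0.05. KLF3, a repressor, rose by 0.28 ± 0.06, a call lost without DMSO replicate 1 or simvastatin replicate 2 (adjusted p up to 0.0562). Of the genes that fell, KLF12, another repressor, changed by -0.34 ± 0.07 (lost without DMSO replicate 2 or 3, adjusted p up to 0.0587) and SP4, abundant in neurons, by -0.23 ± 0.04. KLF4, a factor closely related to KLF2 that flow also raises in endothelium, changed by 0.08 ± 0.06 (adjusted p = 0.447).

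Of all genes 5.72% were lower and 5.31% higher with mevalonate than with simvastatin alone. In the family 7 members were lower and 0 higher, and leaving out any single array left 7. They were KLF2, KLF3, KLF6, KLF9, KLF11, KLF16 and SP1, a widely expressed activator (-0.29 ± 0.05, adjusted p = 0.0045). KLF11 fell by 0.93 ± 0.09 and KLF6 by 0.50 ± 0.05. KLF12 and SP4, lower with simvastatin, differed by -0.01 ± 0.07 and 0.02 ± 0.04 between simvastatin plus mevalonate and simvastatin alone. With mevalonate present they stood at -0.34 ± 0.07 and -0.21 ± 0.04 relative to DMSO (limma, adjusted p = 0.132 and 0.141). Against DMSO 0 of 26 passed with mevalonate present (limma, with 5 at an unadjusted p under 0.05), where 0.0739% of all genes passed. With an intensity trend and robust variance 2 of the 26 passed.

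**Figure D3:**
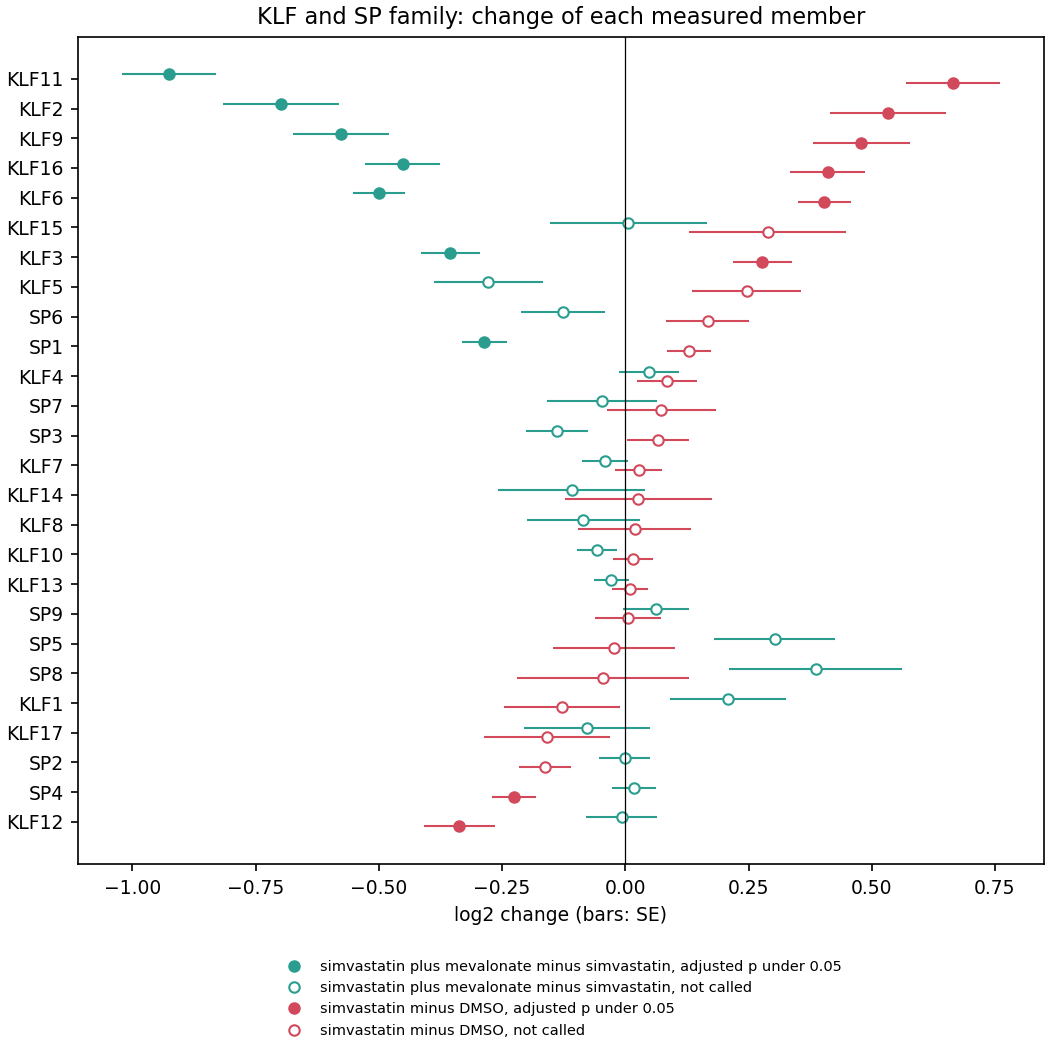
Log2 change of the 26 measured KLF and SP family members for simvastatin plus mevalonate minus simvastatin and for simvastatin minus DMSO (points, bars are SE from limma, filled where the adjusted p is under 0.05). KLF2 and KLF11 head the family, and KLF12 and SP4 lie below 0 for simvastatin minus DMSO. For simvastatin plus mevalonate minus simvastatin KLF12 and SP4 lie close to 0, so they stayed near their level with simvastatin alone.

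Upstream of KLF2, 14 of 16 listed genes of the ERK5 and MEF2 pathway were measured, and 3 rose and 1 fell with simvastatin. Over all genes 5.98% rose and 7.38% fell. MEF2A, a transcription factor that binds MEF2 sites, had values of 8.62, 8.74 and 8.82 with simvastatin, against 8.09, 7.97 and 8.01 with DMSO. It rose by 0.70 ± 0.06 (SE; limma, adjusted p = 0.000121). HEG1, a membrane receptor that binds the CCM proteins, rose by 0.53 ± 0.07, and HDAC5, a deacetylase that binds and represses MEF2 factors, by 0.42 ± 0.07. HDAC9, with a like role, fell by 0.30 ± 0.04. MAPK7, which encodes ERK5, changed by 0.01 (adjusted p = 0.936) and its kinase MAP2K5 by 0.07 (adjusted p = 0.61).

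With mevalonate MEF2A fell by 0.65 ± 0.06, HEG1 fell by 0.79 ± 0.07 and HDAC5 fell by 0.38 ± 0.07 relative to simvastatin alone. MAP3K3, a kinase above ERK5, was also lower (-0.31 ± 0.07, adjusted p = 0.0269), and HDAC9 was higher (0.20 ± 0.04, adjusted p = 0.0205). MAP3K3 did not pass without replicate 1 or 2 of simvastatin or replicate 2 or 3 of simvastatin plus mevalonate (adjusted p up to 0.0787). HDAC9 did not pass without simvastatin replicate 2 or any array of simvastatin plus mevalonate (up to 0.0648). In all 4 genes were lower and 1 higher, and 3 lower and 0 higher without simvastatin replicate 2 or simvastatin plus mevalonate replicate 2 or 3. Over all genes 5.72% were lower and 5.31% higher.

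Of 15 measured genes that KLF2 controls in endothelium and T cells, some raised and others lowered by it, 1 rose and 3 fell with simvastatin. The shares over all genes were 5.98% upward and 7.38% downward. The median change over this mixed list was 0.02. ASS1, which makes arginine precursors and is raised by KLF2 in endothelium, rose by 0.73 ± 0.05 (SE; limma, adjusted p = 3.58e-05). ANGPT2, an angiogenic ligand that KLF2 lowers there, fell by 1.13 ± 0.09 on the log2 scale (adjusted p = 0.000118), and the chemokine gene CCL2 by 0.72 ± 0.13. TXNIP, an inhibitor of thioredoxin, fell by 0.52 ± 0.06. NOS3, the endothelial nitric oxide synthase and a standard KLF2 target, changed by -0.00 (adjusted p = 0.996), the T cell and endothelial receptor S1PR1 by 0.04 (0.68) and thrombomodulin, THBD, by -0.14 (0.295). Their mean log2 values were low, at 5.48 for NOS3, 4.6 for S1PR1 and 5.13 for THBD, against a median of 5.187 over all probesets. Whether the line expresses these genes was not tested. With mevalonate ASS1 fell by 0.55 ± 0.05 and ANGPT2 rose by 0.88 ± 0.09. CCL2, at 0.35 ± 0.13 (adjusted p = 0.155), and TXNIP, at 0.10 ± 0.06 (adjusted p = 0.366), did not pass with mevalonate added. Against DMSO with mevalonate present TXNIP stood at -0.42 ± 0.06 (adjusted p = 0.0587).

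Among immediate early genes, the class to which RHOB has been assigned, 10 of 19 measured rose and 1 fell with simvastatin. Of all genes 5.98% rose and 7.38% fell. The median change was 0.35, against 0.01 over all genes, and 9 to 11 were called with single arrays left out. The gene that fell was DUSP1 (-0.23), with a limma adjusted p that rounded to 0.05. JUND (0.95 ± 0.05, SE) and JUN (0.66 ± 0.08) encode AP-1 subunits, DUSP5 (0.90 ± 0.07) a phosphatase of ERK kinases, and IER3 (0.79 ± 0.07) a stress-induced survival protein. FOS (0.36, adjusted p = 0.193) and EGR1 (-0.20, adjusted p = 0.0757) did not pass. With mevalonate 11 were lower and 0 higher, where 5.72% of all genes were lower and 5.31% higher. The median was -0.42, against 0.004 over all genes, and 10 to 11 were called with single arrays left out.

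By Pearson correlation of log2 values over the 9 arrays, PRXL2C (r = 0.998), FMN1 (0.997), EZR (0.997), SLK (0.995) and JUND (0.995) were most like RHOB. FMN1 encodes a formin that builds actin filaments, EZR the membrane linker ezrin and SLK a kinase. EZR rose by 0.93 ± 0.05 and FMN1 by 0.83 ± 0.04 (SE) with simvastatin, and with mevalonate added they changed by -1.09 ± 0.05 and -1.07 ± 0.04. The genes most like KLF2 were RASSF3 (r = 0.941), MOAP1 (0.939), RGS10 (0.936), GPR107 (0.933) and NPIPA1 (0.929). RASSF3 rose by 0.53 ± 0.11 and fell by 0.69 ± 0.11 when mevalonate was added, and on its 3 DMSO arrays replicate 2 was the highest, as for KLF2. NPIPA1 belongs to a family of near-identical copies, so its probeset may read several genes. RHOB and KLF2 correlated with each other at 0.908, which placed KLF2 at rank 400 among the genes like RHOB. These correlations rest on 3 treatment groups that share the arrays, and describe only these samples. Because the neighbours were picked for likeness over these same arrays, patterns they share with RHOB or KLF2 follow from that choice.

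**Figure D4:**
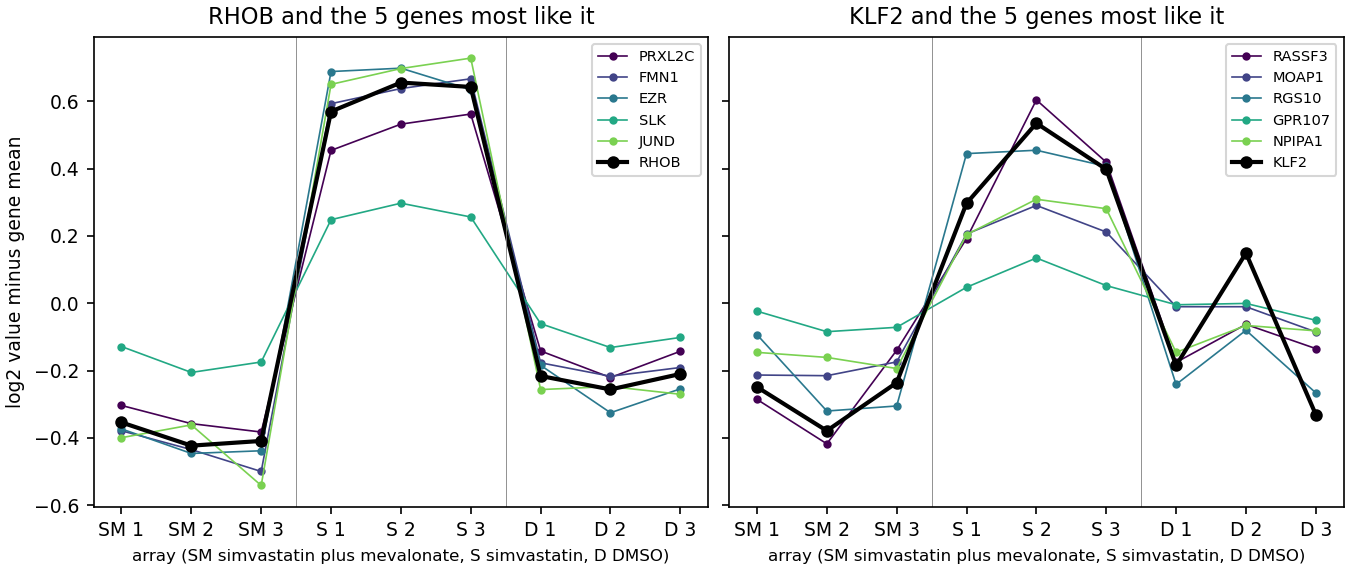
Log2 value minus the gene's own mean on each of the 9 arrays for RHOB, KLF2 (thick black lines) and the 5 genes most like each. RHOB and its neighbours run nearly flat inside each group, whereas the KLF2 line peaks at simvastatin replicate 2 and at DMSO replicate 2.

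Markers of the line and of other cell types were read beside these results. With simvastatin 7.38% of all genes fell and 5.98% rose past the threshold. Of 11 neuroblast markers 7 fell and 0 rose, and their mean over the list was 9.83 to 9.85 on simvastatin arrays, against 10.24 to 10.26 on DMSO arrays. Of 8 mesenchymal markers 1 rose and 4 fell, with list means of 7.01 to 7.12 against 7.38 to 7.39. Of 4 blood markers CD68, which lysosome-rich cells also express, rose by 0.48 (adjusted p = 0.00854), with list means of 5.20 to 5.41 with simvastatin and 5.06 to 5.22 with DMSO. Schwann cell and glial markers, 5 measured, gave 0 calls with simvastatin by limma and 0 values with an unadjusted p under 0.05. The part of these markers in the changes of RHOB and KLF2 was not tested.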

How the data were processed

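RNA from 9 samples was measured on 1-colour Affymetrix whole-transcript arrays, per the labels' protocols. The deposited values are log2 expression values per probeset, made by the authors. GCRMA and HOMER are listed per the submitters' processing notes, with no role given, and further steps and the annotation build are not given in the sources used here. Array medians were 5.17 to 5.21, so a change of all genes together would not be visible in these values. No detection calls were used, and precision is set by having 3 arrays a group.

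Of 53617 probesets 16098 carried 1 symbol and matched RefSeq by Entrez identifier. The brightest probeset stood for a gene, which left 14884 genes. Groups were compared with limma 3.58.1 under R 4.3.3 (lmFit, eBayes, 9 arrays in 1 fit, 6 residual degrees of freedom), with Benjamini-Hochberg adjustment over all genes and a threshold of 0.05. The procedure was tested on simulated data. The series calls the samples of a group independent but does not say that they were separate cultures, so p-values cover only the spread between these samples, which may be partly technical. Members, lists and motifs were chosen with earlier results of these data known. Some gene lists that were analysed are not reported here. Named beside the members are RHOA, RHOC and KLF and SP genes past the threshold, up to 4 such members per other list and comparison with the largest change, HMGCS1 and the 5 genes most like each member. Other genes are named as examples that did not pass, chosen after their values were seen. Differences of RHOB from RHOA and RHOC were added after seeing the data. Alternatives covered the samples fitted, a replicate block, the variance model, probeset choice, quantile normalization, centring, a filter on dim genes and each array left out.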

Additional observations from a re-analysis of the deposited data

How the results depend on the processing

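The RHOB calls with simvastatin against DMSO and with mevalonate against simvastatin held under all 17 alternatives, as did the KLF2 call with mevalonate. With each array left out in turn the RHOB changes kept adjusted p of at most 0.000209 and 0.000187, and its difference from DMSO with mevalonate from -0.19 to -0.15. With an intensity trend and robust variance that difference (-0.17) passed the threshold (adjusted p = 0.0342), as did 2 KLF and SP genes where the main analysis had 0, and 223 genes in all, against 11. It was 105 with dim genes left out and 0 with only the groups compared. The KLF2 rise was 0.53 but not called with only the groups compared or all probesets tested, and ran from 0.43 to 0.67 with single arrays left out. The KLF2 permutation p ran from 0.00357 to 0.05 over left-out arrays. KLF and SP calls with simvastatin ran from 5 to 8 over left-out arrays. Same-numbered arrays shared little beyond the number (their deviations correlated at -0.081 to 0.05, and 1 of 9 arrays correlated best with its own number), so they were not treated as pairs. With the replicate number as a block KLF2 kept its rise (0.53, adjusted p = 0.0362), its 3-group permutation p was 0.0833, 1576 and 1230 genes were called in the comparisons with simvastatin alone, against 1988 and 1642, and 0 against DMSO with mevalonate. In the lists with 1 or 2 calls (turnover, prenylation) counts ran from 0 to 2 over the alternatives. With single arrays left out, the RHOB minus KLF2 difference ran from 0.17 to 0.43 for simvastatin against DMSO, from -0.37 to -0.29 with mevalonate against simvastatin, and from -0.15 to 0.11 with mevalonate against DMSO. The KLF2 difference from DMSO with mevalonate ran from -0.27 to -0.03.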
